A study of Rattus norvegicus with 18 samples.

Results

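The genes described here make, break down and carry GABA (gamma-aminobutyric acid), the main inhibitory transmitter of the brain and, with glycine, of the spinal cord. They are Gad1, Gad2, Abat, Slc6a11 and Slc32a1, 5 of the 14217 genes named on the arrays, and they were taken as all probe sets whose platform gene symbol is one of these names. They have 8 probe sets in all, 2 for Gad1, 3 for Abat and 1 for each of the others. The genes were chosen on their levels in these same arrays, so their values are a description and carry no test.

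RNA of rat spinal cord material was measured on 18 Affymetrix arrays in 3 groups of 6. The BMP group had bone morphogenetic protein, which belongs to the TGF-beta superfamily of secreted factors, added at 10 ng/mL; its label says "4d", taken to mean 4 days. The CNTF group had ciliary neurotrophic factor, a cytokine that acts through gp130 and STAT3, added at 10 ng/mL and carries the same "4d". The control group is labelled only as control, and its label names no factor, vehicle or time, which limits every comparison with it. All 18 sample descriptions also begin with "14 NT", which was not interpreted, and they do not say which BMP was used, nor from which animals, strain, age, cell type or culture the RNA came. The array titles number the 6 arrays of each group from 1 to 6, and these title numbers are used as names. Since no label says whether the 6 arrays come from separate animals or cultures, a p-value compares a difference with array spread that may be technical in part.

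As background, glutamate decarboxylase turns glutamate into GABA, and vertebrates have a pair of genes for it, Gad1 (the GAD67 protein) and Gad2 (GAD65). The vesicular transporter of Slc32a1 loads GABA and glycine into synaptic vesicles. After release, GABA is cleared by plasma membrane transporters, of which the Slc6a11 protein is found mainly on astrocytes, and is broken down in mitochondria by GABA transaminase, the product of Abat. In the spinal cord, neurons that use GABA are found above all in the dorsal horn and among premotor interneurons. Because the arrays measure bulk RNA, fewer cells of a type and less RNA per cell cannot be told apart.

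The promoters show what sequence lies just before the start of the genes whose levels are described below. RefSeq promoter windows of build GRCr8, from 250 bases before to 50 bases after the gene start, were matched for 4 of the 5 genes. They are printed 5′ to 3′ up to the outermost annotated start of the gene, in lower case; the Gad1 stretch is short because that start lies inside its window. Capitals mark the motifs that were searched on both strands: GGCGCC and CAGAC, named after SMAD proteins that carry BMP signals, TTCNNNGAA, named after STAT proteins, and TATAAA, the TATA box.
Gad1 promoter, chr3:75777202-75777259, plus strand: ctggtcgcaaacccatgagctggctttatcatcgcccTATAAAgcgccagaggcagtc
Gad2 promoter, chr17:89671468-89671717, plus strand: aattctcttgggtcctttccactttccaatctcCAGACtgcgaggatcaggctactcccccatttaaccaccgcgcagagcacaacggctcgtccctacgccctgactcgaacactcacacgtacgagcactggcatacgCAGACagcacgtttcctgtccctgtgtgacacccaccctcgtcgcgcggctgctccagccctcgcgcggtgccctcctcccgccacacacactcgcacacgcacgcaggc
Slc32a1 promoter, chr3:167686995-167687244, plus strand: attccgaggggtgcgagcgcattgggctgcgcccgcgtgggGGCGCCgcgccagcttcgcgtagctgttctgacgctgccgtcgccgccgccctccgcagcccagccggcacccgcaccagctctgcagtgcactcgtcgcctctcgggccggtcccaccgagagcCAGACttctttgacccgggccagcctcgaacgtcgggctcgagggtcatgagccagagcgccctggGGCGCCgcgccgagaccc
Slc6a11 promoter, chr4:148853307-148853556, plus strand: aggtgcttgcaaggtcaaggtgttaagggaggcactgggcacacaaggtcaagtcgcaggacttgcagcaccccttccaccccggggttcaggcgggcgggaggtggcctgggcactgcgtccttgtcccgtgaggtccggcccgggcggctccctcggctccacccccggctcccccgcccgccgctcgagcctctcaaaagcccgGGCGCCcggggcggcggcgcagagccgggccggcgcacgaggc

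Within the 300-base windows, TATAAA was found in Gad1 alone of the 4, and it begins 21 bases before the outermost annotated start of Gad1; 14.2% of the 33469 promoters in the table hold it. GGCGCC was found 2 times in Slc32a1, 1 time in Slc6a11 and 0 times in Gad1 and in Gad2, against 11% of all promoters with a match. CAGAC was found 2 times in Gad1, 2 times in Gad2 and 1 time in Slc32a1, and 50.1% of all promoters hold it. Of the CAGAC matches of Gad1, 1 begins at the last base printed and the other lies after the stretch, so neither is in capitals. TTCNNNGAA was in none of the 4 windows, and 8.87% of all promoters hold it. A match is a description of letters in a window, not of a site.

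Gad1 stood highest with BMP. On the brighter probe set, 1368344_at, the intensities of BMP arrays 1 to 6 were 2970.2, 2998, 4225, 394, 759 and 1165. CNTF arrays 1 to 6 gave 111, 391, 721, 164, 268 and 261, and control arrays 1 to 6 gave 97.8, 205, 236, 73.8, 192 and 208. Every BMP array was above every control array, the lowest of BMP being 394 and the highest of control 236. BMP and CNTF arrays overlapped, since BMP array 4 lay below CNTF array 3. BMP arrays 1, 2 and 3 were the brightest of all 18, at 2970.2 or more, and BMP arrays 4, 5 and 6 lay between 394 and 1165.

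For differences, log2(intensity + 117) was used, with the 20th percentile of the table as the added constant. On this scale, which understates the change of dim genes, the table's median intensity of 746.4 is 9.75. Gad1 averaged 10.73 ± 1.22 with BMP, 8.64 ± 0.66 with CNTF and 8.12 ± 0.37 in controls (log2 level, SD, n = 6 each). BMP minus control was 2.61 ± 0.43 (log2 difference ± SE of the fit over all probe sets), a 6.10-fold ratio with the constant included. Within title numbers 1 to 6 that difference was 3.85, 3.28, 3.62, 1.42, 1.5 and 1.98, so every difference at numbers 1 to 3 was larger than every one at numbers 4 to 6. The plain intensity ratio of BMP to control, with no constant added, ran from 3.95 at number 5 to 30.4 at number 1. BMP minus CNTF was 2.09 ± 0.43, and the BMP array was the higher in 6 of 6 numbers, by 0.87 to 3.76. CNTF minus control was 0.51 ± 0.43, positive in 6 of 6 numbers (0.09 to 1.25) and close to its standard error, and these groups overlapped. In order of level Gad1 thus ran BMP, CNTF, control, and without regard to title number the last 2 did not differ beyond their spread. The standard error of these Gad1 differences was 0.32 in place of 0.43 with the title number as a block.

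The other Gad1 probe set, 1370760_a_at, was dim, with no array at the table median. BMP arrays 1 to 6 read 214, 425, 429, 119, 203 and 167. The CNTF arrays spanned 6.51 to 62.1 (median 12.7) and the control arrays 11.4 to 175 (median 36.4). All BMP arrays lay above all CNTF arrays here, while control array 5, at 175, lay among the BMP arrays. BMP minus control was 1.13 ± 0.23, and the BMP array was higher than the control array of its number in 6 of 6 cases, by 0.13 to 1.76. BMP minus CNTF was 1.33 ± 0.23 (0.87 to 2.10 within numbers, 6 of 6 positive), and CNTF minus control was -0.20 ± 0.23, positive in 3 of 6 numbers. Across the 18 arrays the 2 Gad1 probe sets correlated with r = 0.838, a description of values that share arrays and groups. The size of the Gad1 difference depended on the constant: BMP minus control was 3.17 with a constant of 16 and 1.69 with a constant of 2 to the power 9 on the bright probe set, and 2.17 and 0.43 on the dim one.

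**Figure D1:**
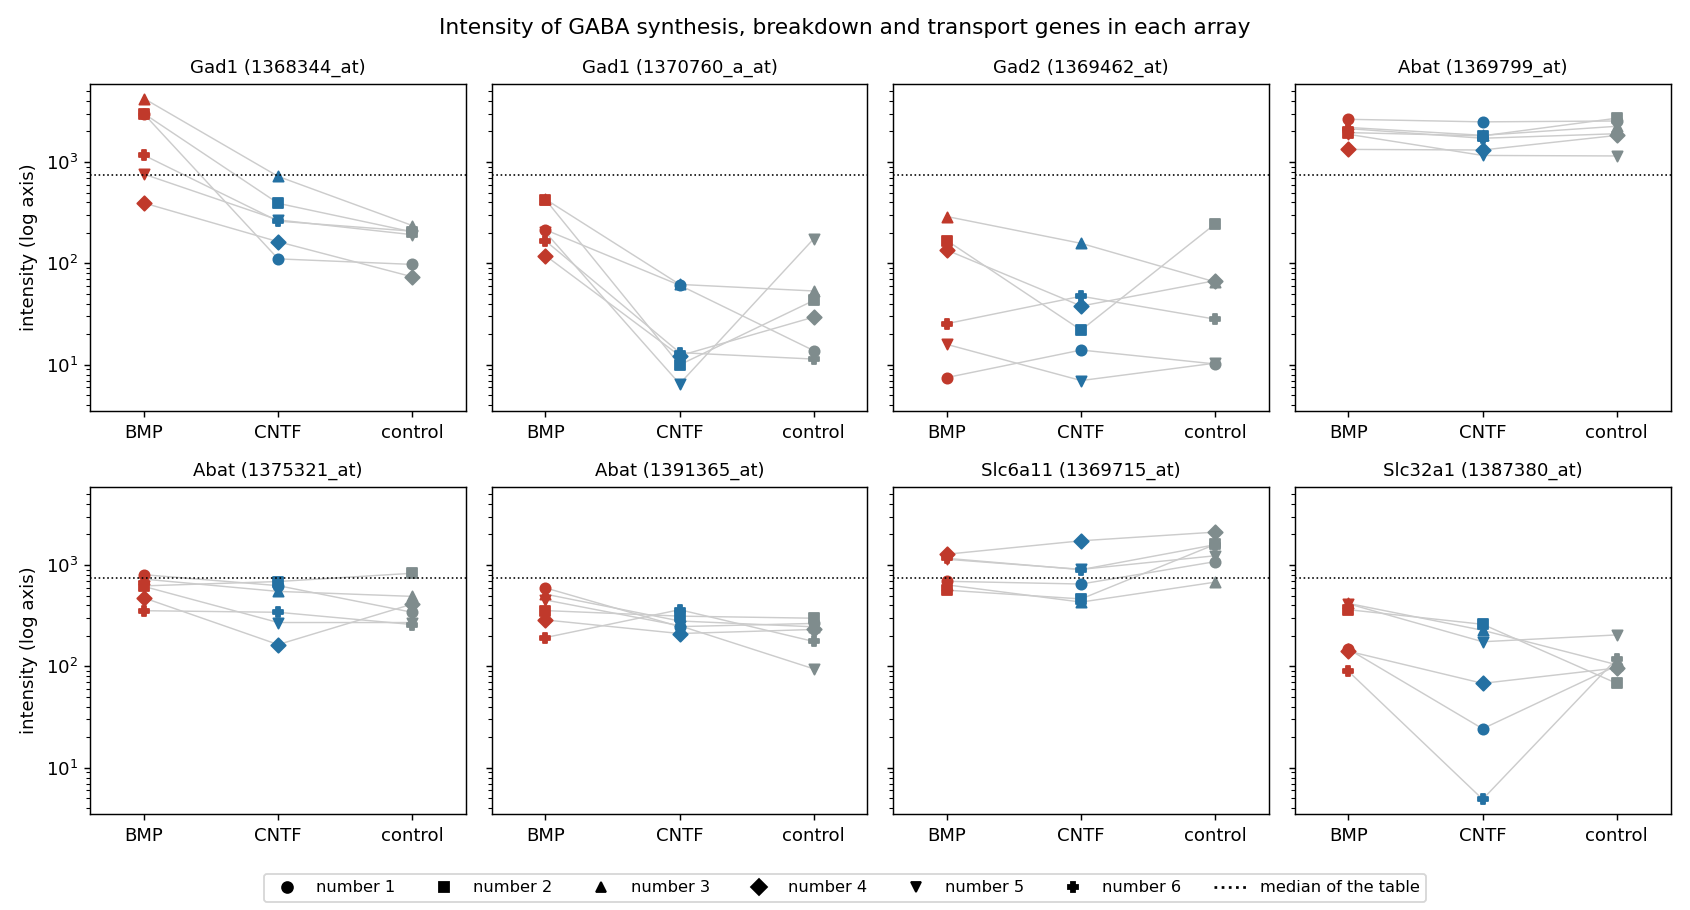
Intensity (log axis) of the 8 probe sets of Gad1, Gad2, Abat, Slc6a11 and Slc32a1 on each of 18 arrays, by group (BMP, CNTF, control). Each symbol is an array, its shape gives the title number, thin lines join arrays of the same number, and the dotted line is the table median of 746.4. On Gad1 1368344_at the BMP arrays sit at 394 to 4225 and the control arrays at 73.8 to 236, while Gad2 lies below the dotted line on all arrays.

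Gad2, the second decarboxylase gene, gave no such order. Its probe set 1369462_at read 7.53, 168, 289.9, 135, 15.9 and 25.5 on BMP arrays 1 to 6, and 14.0, 22.0, 158, 38.0, 7.01 and 47.5 on CNTF arrays 1 to 6. Control arrays 1 to 6 read 10.2, 246, 65.6, 67.7, 10.4 and 28.2. The groups overlapped throughout, and all 18 values lay below the table median. Of the 6 arrays of each group, 3 with BMP, 5 with CNTF and 5 in controls were below the 20th percentile of the table, so differences at this level are poorly measured. BMP minus control was 0.21 ± 0.31 (log2), CNTF minus control -0.14 ± 0.31 and BMP minus CNTF 0.35 ± 0.31, with 3, 3 and 4 of 6 numbers positive. The difference of CNTF from control was 0.07 without control array 2, the brightest of its group, and 0.10 without all arrays of number 2. At this signal a difference in Gad2 was not detectable.

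Slc32a1, the vesicular transporter gene, was dim too, with no array at the table median. Its probe set 1387380_at read 148, 363, 418, 141, 415 and 89.4 on BMP arrays 1 to 6, and 24.3, 260.2, 227, 68.1, 175 and 4.93 on CNTF arrays 1 to 6. Control arrays 1 to 6 read 102, 68.0, 104, 96.5, 204 and 119. BMP arrays 2, 3 and 5 stood above every CNTF and control array, and BMP arrays 1, 4 and 6 lay among them. BMP minus control was 0.62 ± 0.30 (log2), positive in 5 of 6 numbers with 1.38 at number 2 and -0.20 at number 6. BMP minus CNTF was 0.67 ± 0.30 and positive in 6 of 6 numbers (0.35 to 0.91), while CNTF minus control was -0.04 ± 0.30 with 2 of 6 positive. Using the title number as a block, the standard error of these differences was 0.22 in place of 0.30. With a constant of 16 the difference of BMP from CNTF was 1.29. Without CNTF array 6 the difference of CNTF from control was 0.13. The level of Slc32a1 correlated with that of Gad1 1368344_at over the 18 arrays (r = 0.63), and that of Gad2 did so less (r = 0.386). These correlations describe arrays that share groups and title numbers.

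Abat, the gene of GABA breakdown, was well measured by 1369799_at and nearly level. BMP arrays 1 to 6 read 2636, 1949.7, 2191, 1331, 1875 and 2133, and CNTF arrays 1 to 6 read 2488, 1811, 1832, 1313, 1160.3 and 1714. Control arrays 1 to 6 read 2537, 2704, 2249.9, 1829, 1147 and 1901. The 3 ranges overlapped almost whole. BMP minus control was -0.01 ± 0.20 (log2), running from -0.45 to 0.66 within numbers. CNTF minus control was -0.24 ± 0.20, negative in 5 of 6 numbers, and BMP minus CNTF was 0.23 ± 0.20, positive in 6 of 6 numbers (0.02 to 0.64). On this probe set the standard error was 0.12 in place of 0.20 with the title number as a block. The other Abat probe sets are dimmer and did not give the same difference. On 1375321_at BMP spanned 354 to 802, CNTF 164 to 687 and control 259 to 829, and BMP minus control was 0.42 ± 0.27. On 1391365_at BMP spanned 193 to 595, CNTF 211 to 363 and control 94.6 to 299, and BMP minus control was 0.60 ± 0.20, positive in 6 of 6 numbers. The 3 probe sets thus differed in whether Abat was higher with BMP than in controls, and correlated with one another at r = 0.456 to 0.689.

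Slc6a11, the glial GABA uptake transporter, had lower group means with either factor. Its probe set 1369715_at read 690.5, 565, 637, 1278, 1139 and 1163 on BMP arrays 1 to 6, and 649, 463, 431, 1732, 906 and 899.9 on CNTF arrays 1 to 6. Control arrays 1 to 6 read 1079.9, 1599, 678, 2110.3, 1234 and 1586. The groups overlapped, but within every title number both treated arrays lay below the control array. BMP minus control was -0.53 ± 0.29 (log2), between -1.33 at number 2 and -0.08 at number 3. CNTF minus control was -0.69 ± 0.29, between -1.57 and -0.27. With the title number as a block the standard error of these differences was 0.16 in place of 0.29. BMP minus CNTF was 0.17 ± 0.29, positive in 5 of 6 numbers, so the 2 treated groups did not differ beyond their spread. Number 4 had the highest Slc6a11 intensity in each group, at 1278, 1732 and 2110.3, whereas Gad1 1368344_at was lowest at number 4 with BMP and in controls.

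**Figure D2:**
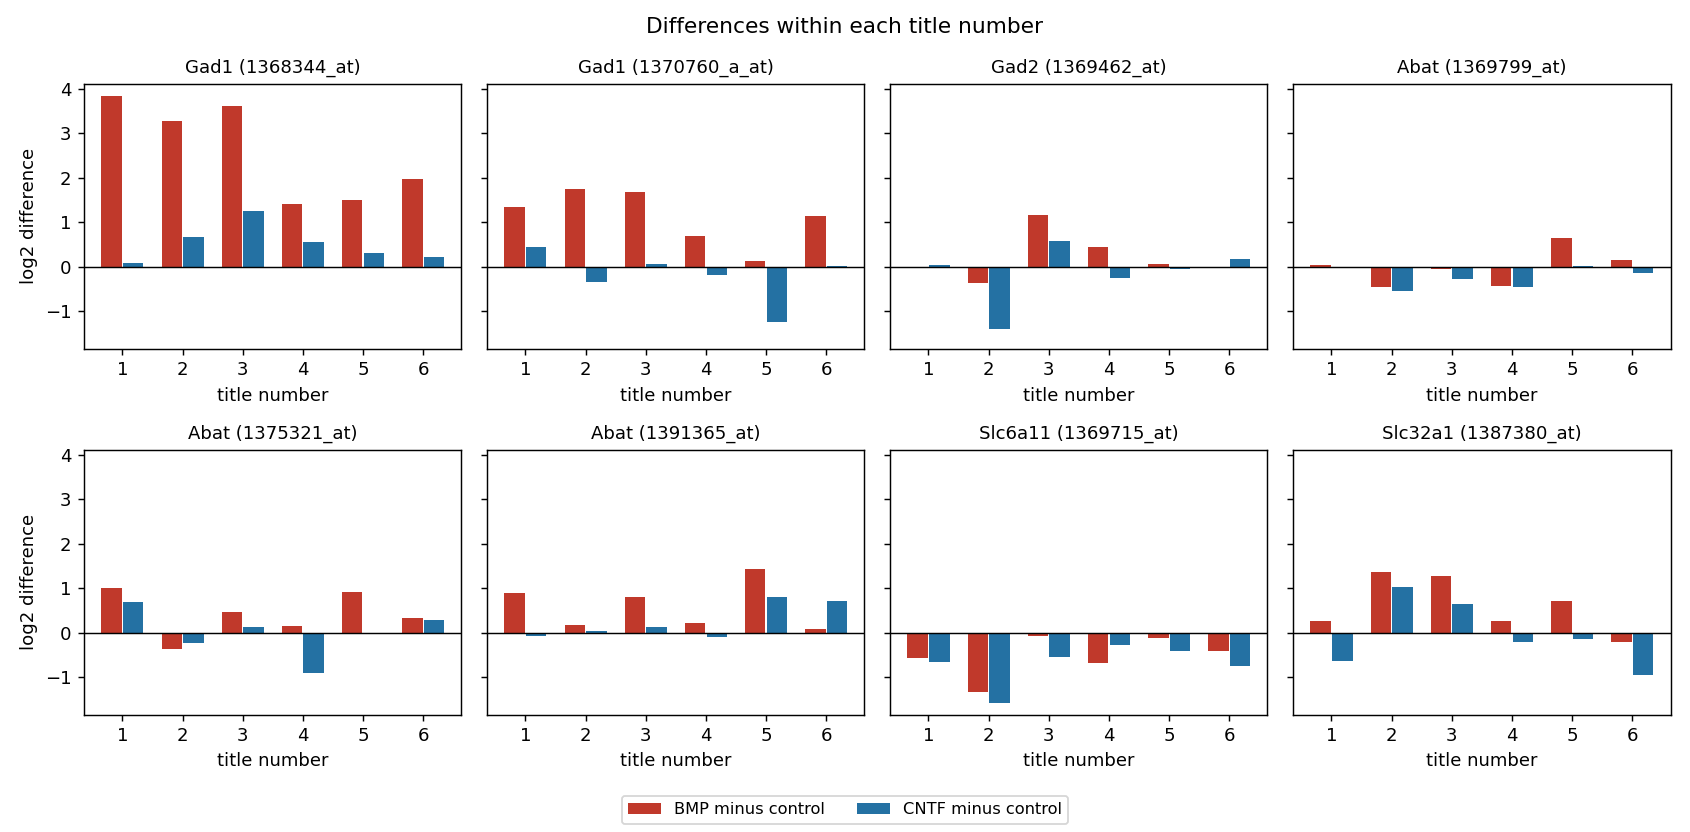
Log2 difference of BMP from control (red) and of CNTF from control (blue) within each title number, for the 8 probe sets; each bar is 1 array minus the control array of the same number, from 0. The Gad1 1368344_at bars for BMP run from 1.42 to 3.85, and all 12 bars of Slc6a11 lie below 0.

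The number of these 5 genes past the threshold, a limma adjusted p under 0.05 on the brightest probe set, is given beside the share of all genes past it. Between BMP and control it was 1 of 5 genes, where 4.21% of the 14217 named genes were higher and 3.02% lower at that threshold. Between CNTF and control it was 0 of 5, where 2.03% were higher and 0.823% lower. Between BMP and CNTF it was 1 of 5, where 3.74% were higher and 3.74% lower, 532 genes each way. With the title number as a block it was 2, 1 and 1 of 5 in these comparisons; the background was then 10.6% higher and 9.28% lower for BMP against control, 5.42% and 4.05% for CNTF against control, and 9.36% and 8.81% for BMP against CNTF. The genes had been chosen on these contrasts, so nothing is read from their counts. The comparisons with control share the same 6 control arrays.

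The genes around these in GABA biology were taken as 87 genes in 4 lists, of which 66 were measured and 32 reached the table median in some group. They cover GABA metabolism and transport, GABA receptors, the inhibitory synapse with chloride transport, and factors and markers of GABAergic neurons. None of them is among the 5 genes above, and they were tested with limma, adjusted over all 31042 probe sets. The lists were also chosen with earlier results of these data known. Their counts and p-values are therefore no independent support for the 5 genes. Of the 66, 5 rose and 5 fell with BMP against control, and their median difference was 0.09 log2, against 0.01 over all genes. With CNTF against control 1 rose and 3 fell, with a median of -0.03 against -0.00 over all genes. With BMP against CNTF 9 rose and 3 fell, with a median of 0.12 against 0.01. Using the title number as a block, 13 rose and 8 fell for BMP against control, 2 and 10 for CNTF against control, and 16 and 3 for BMP against CNTF, and the genes called without the block were all called with it (10, 4 and 12 genes). Of all named genes, 4.21% were higher and 3.02% lower for BMP against control, and 2.03% and 0.823% for CNTF against control. For BMP against CNTF it was 3.74% each way. With the block these shares were 10.6% and 9.28%, 5.42% and 4.05%, and 9.36% and 8.81%. The counts of the lists below stand beside the same shares.

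In the list of factors and markers of GABAergic neurons, the genes that rose with BMP were those of neuropeptide Y, calretinin and reelin. A place on this list does not make a gene specific to GABAergic neurons. The excitatory neuron gene Slc17a6 is given further below. Npy intensity with BMP was 1860.3 to 4919 (median 3210.5), against 209.9 to 1181 (median 489.9) in controls, with no overlap. The log2 difference was 2.41 ± 0.41, higher in 6 of 6 numbers (limma adjusted p = 0.00146). Calb2, the calcium-binding protein calretinin of some inhibitory neurons, had 1154 to 4796 (median 1688) with BMP, against 305 to 499 (median 423) in controls. It rose by 1.93 ± 0.27 with no overlap (adjusted p = 0.00054). Reln, a secreted glycoprotein of several neuron types, had 22349.6 to 71397 (median 43999) with BMP, against 2880.1 to 30641 (median 13489) in controls, and these ranges overlap. Reln rose by 1.87 ± 0.49 in 6 of 6 numbers (adjusted p = 0.0255), a call lost in 6 of 30 alternatives (adjusted p = 0.000186 to 0.0944). Among those 6 were the fits without control array 1 (difference 1.47, adjusted p = 0.0501), without BMP array 2 (0.0617) and without BMP array 3 (0.0635). A second Reln probe set rose by 2.31 ± 0.57 (adjusted p = 0.0184). Of 18 measured genes in this list, 3 rose and 0 fell with BMP, and 5 rose and 0 fell with the block. Their median difference was 0.42 log2, against 0.01 over all genes, and only 4 of the 18 reached the table median in some group. The transcription factors of the spinal GABAergic lineage did not pass: Pax2 differed by 0.80 ± 0.34 (adjusted p = 0.206, with the block 0.0193) and Ptf1a, which is dim, by 0.23.

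In the synapse and chloride list, 2 of 14 rose and 2 fell with BMP, and 4 rose and 2 fell with the block. Slc12a5, the neuronal chloride extruder KCC2 that makes GABA inhibitory, had 1078 to 2311 (median 1556) with BMP, against 447 to 839 (median 567) in controls. It rose by 1.23 ± 0.22 with no overlap (adjusted p = 0.00223). Kctd12, an auxiliary subunit of GABA-B receptors, had 7579 to 12518 (median 9681) with BMP, against 814 to 4233 (median 2101) in controls. That is a rise of 2.22 ± 0.40 with no overlap (adjusted p = 0.00223), and the other Kctd12 probe set rose by 1.81 ± 0.26 (adjusted p = 0.000646). Shisa7, an accessory protein of GABA-A receptors described in mouse, fell to 689 to 1042 (median 856) with BMP, against 1342 to 1685 (median 1529) in controls. Its difference was -0.75 ± 0.12 with no overlap (adjusted p = 0.00126). Nlgn2, the adhesion protein neuroligin 2 of inhibitory synapses, had 718 to 2118 (median 1074) with BMP, against 1801 to 2703 (median 2187) in controls, lower in 6 of 6 numbers. Its fall of -0.84 ± 0.20 (adjusted p = 0.014) was lost without number 1 (adjusted p = 0.05001) and without number 2 (0.0925), the range over 30 alternatives being 0.000246 to 0.0925. A dimmer Nlgn2 probe set differed by -0.47 ± 0.15 (adjusted p = 0.0798).

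Among genes of GABA metabolism and transport, 0 of 16 rose and 3 fell with BMP, and 2 rose and 5 fell with the block. Aldh5a1, succinate semialdehyde dehydrogenase, which acts after Abat in GABA breakdown, had 1085 to 2335 (median 1753) with BMP, against 2006 to 3604 (median 2748) in controls. The CNTF arrays, at 1631 to 2031 (median 1814), were low as well. With BMP Aldh5a1 fell by 0.66 on the log2 scale, with a standard error of 0.15, in 6 of 6 numbers (adjusted p = 0.0132). Without number 2 that call was lost (adjusted p = 0.0937; 0.000561 to 0.0937 over 30 alternatives), and of the other Aldh5a1 probe sets 1 differed by -0.49 ± 0.20, lower in 6 of 6 numbers (adjusted p = 0.166, with the block 0.0171), and 1 by -0.12 ± 0.21 (adjusted p = 0.843). Slc6a6, the taurine transporter, had 2866 to 4062 (median 3552) with BMP, against 4504 to 6289.7 (median 5008) in controls. Its difference was -0.54 ± 0.13 with no overlap (adjusted p = 0.0133), lost without number 3 (0.0592; 0.000339 to 0.0592 over 30 alternatives), and a second probe set gave -0.42 ± 0.13 (adjusted p = 0.0566, with the block 0.0184). Slc38a3, a glutamine transporter of astrocytes, had 818 to 3201 (median 1880.3) with BMP, against 1923 to 6239.5 (median 4123) in controls. With BMP it fell by 1.20 on the log2 scale, with a standard error of 0.33 (adjusted p = 0.0369), but the call was lost in 12 of 30 alternatives, with an adjusted p of up to 0.176, 8 of them with 1 array left out. With CNTF Slc38a3 had 1305 to 2858 (median 2151), also low, whereas the Slc6a6 median with CNTF was 4873, near that of controls. No gene of this list was called for CNTF against control without the block. For BMP against control, Slc17a6, a vesicular glutamate transporter of excitatory neurons, differed by 2.01 ± 0.64 (adjusted p = 0.0684, with the block 0.00189). Slc6a13, another GABA transporter, was dim and in that same comparison differed by 0.51 ± 0.27 (adjusted p = 0.333).

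The calls against control among GABA receptor genes were falls with CNTF. Of 18 measured, 0 rose and 0 fell with BMP against control, where at an unadjusted p below 0.05 there were 2 higher and 0 lower, and 2 rose and 1 fell with the block. With CNTF against control 0 rose and 2 fell, with 1 higher and 4 lower at an unadjusted p below 0.05, and with the block 0 rose and 4 fell. The share of all genes at an unadjusted p below 0.05 is not given, so counts at that threshold, here and below, are a description. Gabrb1, a beta subunit of GABA-A receptors, had 936 to 2828 (median 1558) with CNTF, against 3581 to 8692 (median 5358) in controls. It fell by 1.67 on the log2 scale, with a standard error of 0.24 and no overlap (adjusted p = 0.000333). Gabra4, an alpha subunit, had 137 to 716 (median 377) with CNTF, against 665 to 2835 (median 1804) in controls, lower in 6 of 6 numbers. The difference was -1.88 ± 0.36 (adjusted p = 0.00567), lost without number 3 (0.054; 6.7e-05 to 0.054 over 30 alternatives). With BMP the Gabrb1 range was 4333 to 9842 (median 6410.4) and the Gabra4 range 1267 to 3561 (median 1887). Against CNTF, BMP was therefore higher by 1.92 ± 0.24 for Gabrb1 (adjusted p = 5.74e-05) and by 2.18 ± 0.36 for Gabra4 (adjusted p = 0.00103), neither pair of ranges overlapping. Against control, BMP differed by 0.25 ± 0.24 for Gabrb1 (adjusted p = 0.655) and by 0.30 ± 0.36 for Gabra4 (adjusted p = 0.747).

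The remaining calls with CNTF against control were Sst and Shisa7. Sst, somatostatin, a peptide of inhibitory and other neurons, had 708 to 2944 (median 1142) with CNTF, against 162 to 347 (median 229.7) in controls. It rose by 2.10 ± 0.31 with no overlap (adjusted p = 0.000612), the only rise among the 66 genes in that comparison without the block. Shisa7 had 882 to 1150.2 (median 957) with CNTF, against 1342 to 1685 (median 1529) in controls. Its difference of -0.58 ± 0.12 (adjusted p = 0.0132) was lost without number 2, 3, 4 or 5 (adjusted p = 0.0918, 0.0641, 0.054 and 0.065; 0.00577 to 0.0918 over 30 alternatives). The number that fell in the 4 lists, 3, was 5 without BMP array 1 or without number 1, and 1 without number 3. With the block, 3 of 16 metabolism and transport genes fell with CNTF (0 without it, where 0 were higher and 3 lower at an unadjusted p below 0.05), and 1 of 14 synapse and chloride genes rose and 3 fell (0 and 1 without it). Without CNTF array 1 the number that rose, 1, was 2. For BMP against control the number that rose was 8 without BMP array 6, and the number that fell was 3 without number 1 and 2 without number 2.

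Between BMP and CNTF, several genes that differed from control with BMP also differed here, on the same BMP arrays. Npy was higher with BMP by 2.28 ± 0.41 (adjusted p = 0.0018), Calb2 by 1.89 ± 0.27 (adjusted p = 0.00027) and Slc12a5 by 1.35 ± 0.22 (adjusted p = 0.000896). For these 3 the CNTF ranges, 206 to 1169, 215 to 607 and 296 to 822, lay below the BMP ranges given above. Gata3, a transcription factor of a class of inhibitory interneurons, had 246 to 507 (median 399) with BMP, against 99.2 to 247 (median 115) with CNTF. It is dim and was higher by 0.95 ± 0.20 (adjusted p = 0.00647), and a second probe set gave 0.99 ± 0.33 (adjusted p = 0.084, with the block 0.0361). Snap25, a SNARE protein of vesicle release in neurons of any transmitter, had 2987 to 9645 (median 5829) with BMP, against 1727 to 4517 (median 2601) with CNTF. It was higher by 1.01 ± 0.25 (adjusted p = 0.0193), a call lost in 5 of 30 alternatives (0.000288 to 0.083), among them without BMP array 3 (0.0505) and without CNTF array 6 (0.0542). Sst had 219 to 723 (median 695) with BMP, against 708 to 2944 (median 1142) with CNTF. Its mean log2 level with BMP, 9.35, lay between 10.56 with CNTF and 8.45 in controls, and BMP against control was not called. The difference of BMP from CNTF was -1.21 ± 0.31, negative in 5 of 6 numbers (adjusted p = 0.0255). That call was lost in 8 of 30 alternatives (0.0129 to 0.144), among them without BMP array 1 (0.0573) or 6 (0.0552) and without CNTF array 2 (0.0623) or 6 (0.0686).

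A further 4 genes passed between BMP and CNTF and were named after their values were seen, as were Reln and Slc38a3 above. Gabrb2, a beta subunit, was higher with BMP by 0.88 ± 0.25 (adjusted p = 0.0391) and Slc38a1, a glutamine transporter of neurons, by 0.37 ± 0.11 (adjusted p = 0.0498). Slc6a6 was lower by -0.48 ± 0.13 (adjusted p = 0.0282) and Nlgn2 by -0.72 ± 0.20 (adjusted p = 0.0326). These 4 calls were lost in 13, 22, 11 and 12 of 30 alternatives. A second Gabrb2 probe set, which is dim, differed by -0.00 ± 0.27 (adjusted p = 0.999) and was lower with BMP in 5 of 6 numbers. Other Slc38a1 probe sets differed by 0.51 ± 0.17 (adjusted p = 0.0979, with the block 0.0309) and 0.16 ± 0.24 (adjusted p = 0.835). The second Slc6a6 probe set differed by -0.33 ± 0.13 (adjusted p = 0.156) and the second Nlgn2 probe set by -0.26 ± 0.15 (adjusted p = 0.442). In the synapse and chloride list 2 rose and 1 fell between BMP and CNTF; using the block, 6 rose and 1 fell. The number that fell between BMP and CNTF over the 4 lists, 3, was 0 without CNTF array 6 and 1 without BMP array 1, 2, 3 or 4 or without CNTF array 2 or 5. It was also 0 without number 1 or 3, and 1 without number 2, 4 or 6.

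**Figure D3:**
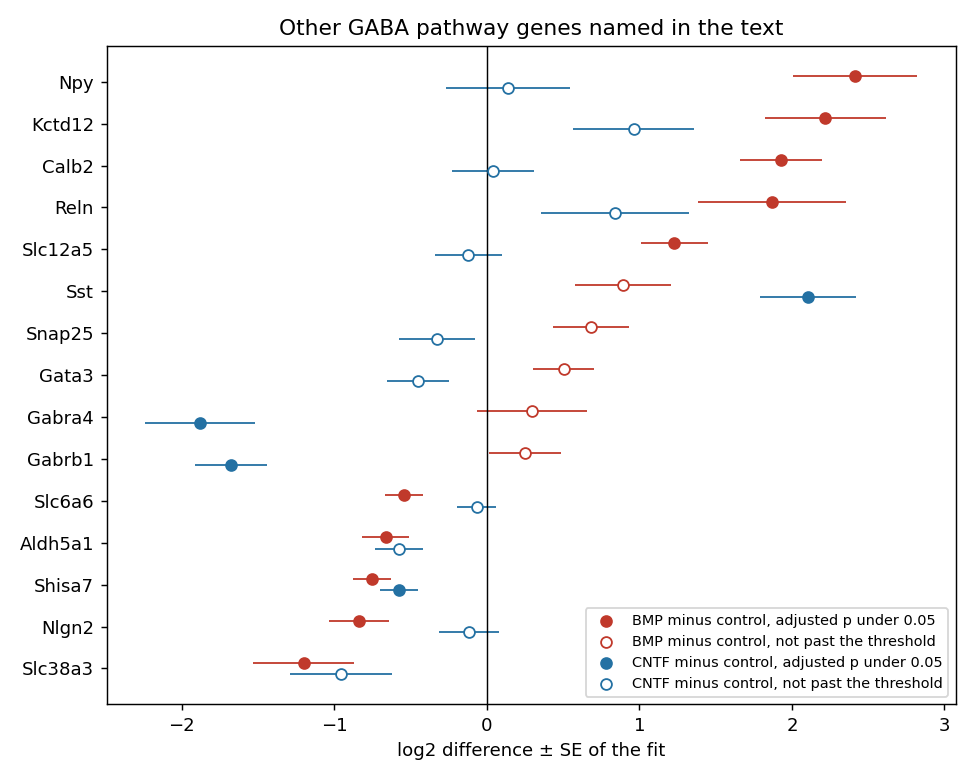
Log2 difference ± SE of the fit for 15 GABA pathway genes, BMP minus control (red) and CNTF minus control (blue); filled points have a limma adjusted p under 0.05. For BMP, Npy, Kctd12, Calb2, Reln and Slc12a5 are filled to the right of 0, and Slc38a3, Nlgn2, Shisa7, Aldh5a1 and Slc6a6 to the left. For CNTF, Sst alone is filled to the right, and Gabrb1, Gabra4 and Shisa7 to the left, at -1.67, -1.88 and -0.58.

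The arrays differed in markers of other cell types as well. Neuron markers (18 of 18 measured) summed to an intensity of 134677 to 218278 with BMP, 174493 to 202780 with CNTF and 174259 to 189263 in controls. Of them 2 rose and 2 fell with BMP against control, 6 and 3 with the block, and Rbfox3, the nuclear protein NeuN of mature neurons, differed by 0.24 ± 0.27 (adjusted p = 0.716). Astrocyte markers (12 of 14 measured) summed to 193880 to 312093 with BMP, 227301 to 350597 with CNTF and 168443 to 266501 in controls. Of the 12, 1 rose and 0 fell with BMP against control, 2 and 0 with the block. With CNTF against control 1 rose and 1 fell, 2 and 3 with the block, so the list did not move as 1. Gfap, the astrocyte filament protein, differed by 2.33 ± 0.78 with BMP (adjusted p = 0.0867, with the block 0.0169) and rose by 3.96 ± 0.78 with CNTF (adjusted p = 0.00708), in the same arrays in which the Slc6a11 mean was lower. Oligodendrocyte lineage markers (13 of 15 measured) summed to 35851 to 219566 with BMP, 211196 to 367711 with CNTF and 208974 to 363533 in controls, and 10 of the 13 fell with BMP. Microglia markers (8 of 8 measured) summed to 733 to 1249 with BMP, 905 to 1299 with CNTF and 791 to 1573 in controls, and no member reached the table median. Schwann cell markers (4 of 6 measured, with Sox10, which the oligodendrocyte list holds too) summed to 2029 to 9222 with BMP, 8367 to 17131 with CNTF and 6550 to 16178 in controls. No marker was listed at 0 on any array.

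Fibroblast, pericyte and meningeal markers (13 of 13 measured) followed the Gad1 pattern in part. They summed to 14536 to 78883 with BMP, 4335 to 27020 with CNTF and 6162 to 15900 in controls. On BMP arrays 1 to 6 the sums were 31201, 78883, 38704, 14536, 23583 and 22739, so arrays 1, 2 and 3, with the highest Gad1, also had the highest sums. The neuron marker sums on these arrays were 134677, 172198, 218278, 202501, 214683 and 156436, in an order unlike that of Gad1. Each sum adds plain intensities, so the brightest genes weigh most. Calb2 was, like Gad1, highest on BMP arrays 1, 2 and 3 (2281, 1931 and 4796, against 1154, 1445 and 1186). Npy was lowest on BMP array 3 (1860.3). In controls the fibroblast, pericyte and meningeal sum was highest at number 6 (15900) and Gad1 at number 3 (236). On CNTF arrays both were highest at number 3 (27020 and 721). Col1a2, a collagen chain, rose with BMP by 2.61 ± 0.50 (adjusted p = 0.0035), while Col1a1 differed by 1.32 ± 0.46 (adjusted p = 0.0994, with the block 0.00218) and Dcn, decorin, by 0.31 ± 0.32 (adjusted p = 0.694). In all, 1 of the 13 rose and 1, Cspg4, which is also on the oligodendrocyte list, fell; with the block 5 rose, Col1a1, Col1a2, Col3a1, Acta2 and Tagln, and 1 fell. The part of these markers, of neuron numbers or of the title numbers in the values of Gad1 or Slc6a11 was not tested.

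The genes whose log2 levels were most like those of Gad1 1368344_at over the 18 arrays, among 8925 genes at or above the table median, were Acadl (r = 0.961), Disp3 (0.95), Sdc2 (0.948), Olfml2b (0.941) and Col1a2 (0.93). Acadl is a mitochondrial enzyme of fatty acid oxidation and Sdc2 the heparan sulfate proteoglycan syndecan 2. Their BMP minus control differences were 0.80, 1.43, 0.71, 1.37 and 2.61 log2, against 2.61 for Gad1. For Abat 1369799_at the most similar were Ythdc1 (r = 0.93), Zfp36l1 (0.881), Rmnd1 (0.875), Smarce1 (0.871) and Cxcr4 (0.868), and their differences of BMP from control lay between -0.02 and 0.15. For Slc6a11 they were Klf9 (r = 0.898), Foxk2 (0.865), Bex4 (0.861), Errfi1 (0.844) and Trib2 (0.844). All 5 had lower means with BMP (-0.36 to -0.21) and with CNTF (-1.24 to -0.22) than in controls. These correlations describe arrays that share groups, title numbers and processing.

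**Figure D4:**
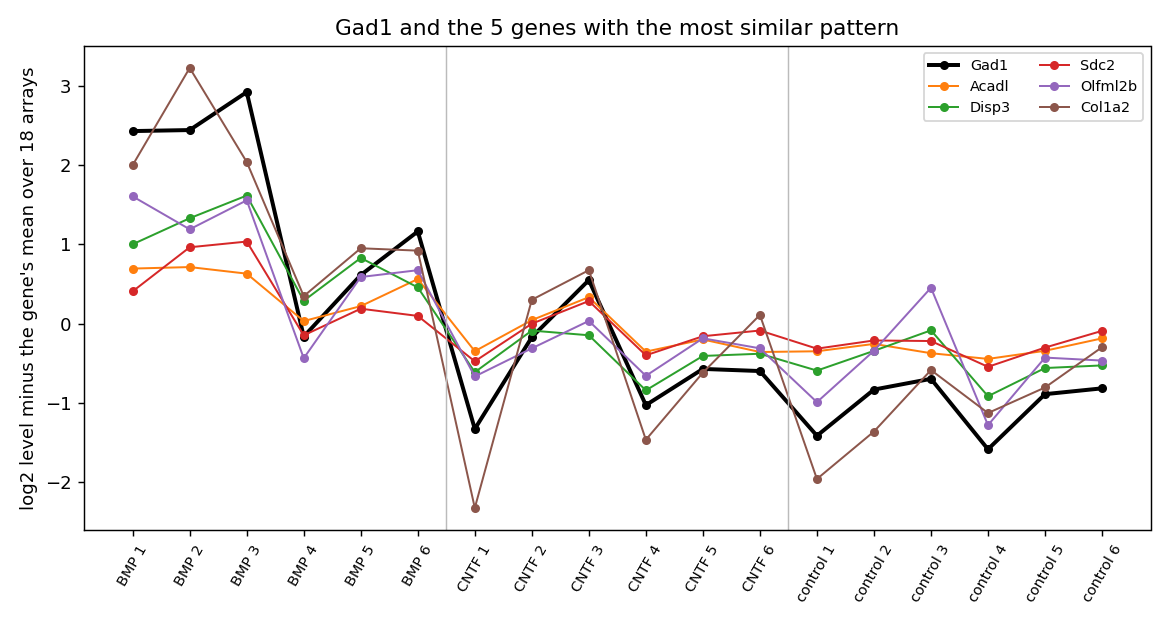
Log2 level minus the gene's own mean over 18 arrays for Gad1 (black) and the 5 genes with the highest correlation to it, by array in the order BMP, CNTF, control. Gad1 lies between 2.43 and 2.92 on BMP arrays 1, 2 and 3 and at -0.17 on BMP array 4, and Col1a2 has the widest swing of the 5 similar genes.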

How the data were processed

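Spinal cord RNA was measured on 18 arrays in 3 labelled groups of 6. The deposited values are linear probe set intensity values; how the probes of a set were summarised is not given in the sources used here. In the deposited table the mean intensity, after 2% of values were trimmed at each end, was 2500.7 to 2500.8 on all arrays, and array medians were 666.5 to 817.2. The deposited scaling was kept. The number of arrays limits the precision.

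Of 31099 probe sets, 57 Affymetrix controls were left out and 31042 tested; 20826 had 1 gene symbol in the platform annotation, 436 several and 9780 none. Of the 20826, 20758 matched a current RefSeq gene by Entrez identifier and 0 symbols differed. A gene is represented by its brightest probe set. Values were fitted as log2(intensity + 117) with limma 3.58.1 in R 4.3.3 (group means, all 18 arrays, intensity trend), with two-sided tests, p adjusted by Benjamini and Hochberg's method over the 31042 probe sets, and a threshold of 0.05. The fit was tested on simulated data in which all arrays were independent, so that test does not cover arrays that share a title number. Dim means below the table median. The title numbers were checked for pairing: deviations from group means of same-numbered arrays correlated at 0.121 to 0.491 in 18 of 18 pairs, all above 0.1, and 18 of 18 arrays correlated best with their own number, so the fit with the number as a block is given beside the tested results whose call it changes.

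The 5 genes and the lists were chosen with earlier results of these data known. Named were the 5 genes, in each comparison up to 8 called genes of the 4 lists with the smallest adjusted p, and the 5 most correlated genes of each bright member; others were named after their values were seen. Alternatives were constants of 16 and of 2 to the power 9, quantile normalization, dim probe sets left out, no trend, the block, the mean of all probe sets, and leaving out each array or number.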

Additional observations from a re-analysis of the deposited data

Results flagged for a closer look

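Within the 75 groups of 6 arrays checked for a far value, 5 had 1 array apart from the others, and chance alone sets about 1 in 20 groups apart. Control array 5 had a Gad1 1370760_a_at log2 level of 8.19, with the other controls at 7.0 to 7.41. CNTF array 3 had a Gad2 level of 8.10, with the others at 6.95 to 7.36, and control array 2 had a Gad2 level of 8.50, with the others at 6.99 to 7.53. CNTF array 2 had a Gata3 level of 8.51, with the others at 7.75 to 7.99. These 4 levels correspond to intensities of 175.3, 157.7, 245.9 and 246.9, all below the table median. CNTF array 1 had a Reln level of 12.35, with the others at 14.15 to 15.10.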

How the results depend on the processing

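Of 705 alternative values of the differences of the 5 genes, 699 moved by less than 1 SD between arrays, and 25, all of differences between -0.20 and 0, had the other sign. The exceptions were all changes of the constant: Gad1 1368344_at, BMP minus control, was 1.69 with the larger constant, Gad1 1370760_a_at was 2.17 and 0.43 (BMP minus control) and 2.73 and 0.50 (BMP minus CNTF) with 16 and with the larger one, and Slc32a1, BMP minus CNTF, was 1.29 with 16. With the title numbers as a block, 5176 probe sets passed for BMP against control (1865 without it), 2349 for CNTF against control (721) and 4686 for BMP against CNTF (1934). The GABA pathway genes called with the block were 13 that rose and 8 that fell (5 and 5 without it), 2 and 10 (1 and 3), and 16 that rose (9), while the pairing changed no other of these counts by more than 1.5 times. On leaving out an array or a number, the probe sets called ranged over 740 to 2097, 366 to 795 and 1111 to 1985 in the 3 comparisons, lowest without number 2, 5 and 2. Pathway genes then ranged over 4 to 8 that rose and 2 to 5 that fell for BMP against control, 1 to 2 and 1 to 5 for CNTF against control, and 6 to 10 and 0 to 3 for BMP against CNTF. The cause of these changes was not tested, beyond the smaller number of arrays. Of 779 alternative values of called genes, 98 missed the threshold and none reversed. With dim probe sets left out, no value exists for Gad2, Slc32a1, 1370760_a_at, 1375321_at, 1391365_at or Gata3. Signal over background limits the dim genes: no array reached the table median for Gad2, Slc32a1 or Gad1 1370760_a_at.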
